A study of Mus musculus with 7 samples.

Results

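AP-1 is a transcription factor made of a Fos subunit and a Jun subunit joined through leucine zippers, and the genes described here encode its subunits together with those of 2 further factors that are switched on with them. Many of them are immediate early genes, which means that signals reaching the cell through kinases induce them without new protein synthesis. SRF bound at CArG boxes and CREB-family factors bound at cyclic AMP response elements (CREs) are textbook regulators of these promoters. In muscle stem cells (MuSCs), the resident stem cells of skeletal muscle, this programme is known to be switched on early in activation, and also while cells are dissociated from the tissue. The 9 genes were taken from a list by name, so no measured value chose them: the Fos subunits Fos, Fosb, Fosl1 and Fosl2, the Jun subunits Jun, Junb and Jund, the ATF/CREB-family repressor Atf3, and the zinc-finger factor Egr1. They are 9 of 21884 protein-coding genes with a unique symbol in GENCODE M21 (mouse build mm10), and each was examined over its gene body and 20 kb on either side.

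The study asked where TRF2, a protein of the telomere encoded by Terf2, sits on chromatin and what its loss does to open chromatin. Open chromatin was measured by ATAC-seq, with a transposase that inserts where DNA is exposed, in MuSCs from uninjured hind limbs at 0 h, from 2 Control and 2 TRF2KO samples. Occupancy was measured by CUT&Tag, where an antibody tethers the transposase, with TRF2 antibody in 2 samples and IgG in 1. These were MuSCs of the tibialis anterior, labelled wild type, 3 days after notexin, a muscle toxin. For CUT&Tag the methods instead name an earlier time, a second muscle and mice with a Pax7 Cre and a tdTomato reporter. The TRF2KO mice carry a floxed TRF2 allele removed by a tamoxifen-induced Cre that Pax7 drives, so deletion is limited to Pax7-expressing cells and their progeny. Groups follow sample titles, since every sample is labelled wild type in its genotype entry. The methods keep all mice on a C57BL/6 background and, in general, start tamoxifen in young adults. The alleles and treatment of the Control mice and the age at sampling are not given for these samples in the sources used here. All cells were dissociated from muscle and sorted before either assay, and the ATAC and CUT&Tag cells differ in injury, muscle and mice, so the assays are set side by side and not compared as treatments.

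The sequences below carry the findings that follow. They include 2 starts occupied by TRF2 in both libraries (Jun and Fosl2) and the Fos promoter. The internal start of Atf3, where the open chromatin of that gene lies, is also shown. Last come an ATAC region upstream of Fosl2 that ranked lower in both TRF2KO libraries and 2 TRF2 regions upstream of Fosl1 and Fos. All are on build GRCm38 (mm10), 5′ to 3′. Capitals mark a CArG box, TGACG on either strand (one arm of a CRE) or TGACNTCA on either strand, a pattern that includes the full CRE TGACGTCA. In the Fos stretch, chr12:85473560-85473859 on the plus strand, ending shortly before the start, the capitals open with a CArG box, CCATATTAGG. The Jun stretch, chr4:95052223-95052472 on the minus strand, is the 250 bases before the start. Its capitals mark TGACATCA. The Atf3 stretch, chr1:191183334-191183583 on the minus strand, precedes the internal start and ends 7 bases into the exon. The Fosl2 stretch, chr5:32135551-32135800 on the plus strand, precedes the gene start.
Fos: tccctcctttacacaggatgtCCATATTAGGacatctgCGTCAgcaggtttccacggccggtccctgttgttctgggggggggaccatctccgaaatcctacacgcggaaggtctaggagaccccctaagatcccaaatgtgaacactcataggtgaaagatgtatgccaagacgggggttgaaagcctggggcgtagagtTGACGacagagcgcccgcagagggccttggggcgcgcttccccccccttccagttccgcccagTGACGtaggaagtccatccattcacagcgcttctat
Jun: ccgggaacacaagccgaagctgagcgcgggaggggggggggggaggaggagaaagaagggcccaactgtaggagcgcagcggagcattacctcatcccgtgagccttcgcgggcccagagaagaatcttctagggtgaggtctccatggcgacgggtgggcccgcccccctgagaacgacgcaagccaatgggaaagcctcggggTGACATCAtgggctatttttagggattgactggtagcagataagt
Atf3: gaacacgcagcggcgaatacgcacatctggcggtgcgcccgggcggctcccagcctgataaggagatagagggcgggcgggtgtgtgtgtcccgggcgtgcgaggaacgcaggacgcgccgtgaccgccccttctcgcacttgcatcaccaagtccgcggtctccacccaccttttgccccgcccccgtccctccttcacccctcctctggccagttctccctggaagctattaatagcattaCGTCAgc
Fosl2: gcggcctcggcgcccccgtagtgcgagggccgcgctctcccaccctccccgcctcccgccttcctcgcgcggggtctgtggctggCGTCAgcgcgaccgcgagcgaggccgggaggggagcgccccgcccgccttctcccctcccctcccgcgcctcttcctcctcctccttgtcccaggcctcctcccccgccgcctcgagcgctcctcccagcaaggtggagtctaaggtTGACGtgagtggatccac

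The next 3 stretches hold no exon bases and are shown on the plus strand. The region upstream of Fosl2 is chr5:32120942-32121191, at the ATAC summit of Control replicate 1, and holds none of the marked motifs. The Fosl1 upstream TRF2 stretch is chr19:5445082-5445331 and the Fos upstream TRF2 stretch is chr12:85455231-85455480, both centred between the TRF2 summits. The Fos upstream stretch holds TGACG 3 times on one strand or the other.
Fosl2 upstream region: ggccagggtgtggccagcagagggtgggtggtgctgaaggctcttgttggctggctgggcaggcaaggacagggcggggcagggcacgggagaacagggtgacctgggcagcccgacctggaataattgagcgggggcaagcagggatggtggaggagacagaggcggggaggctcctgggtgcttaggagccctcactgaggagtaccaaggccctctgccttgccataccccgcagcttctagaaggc
Fosl1 upstream TRF2 region: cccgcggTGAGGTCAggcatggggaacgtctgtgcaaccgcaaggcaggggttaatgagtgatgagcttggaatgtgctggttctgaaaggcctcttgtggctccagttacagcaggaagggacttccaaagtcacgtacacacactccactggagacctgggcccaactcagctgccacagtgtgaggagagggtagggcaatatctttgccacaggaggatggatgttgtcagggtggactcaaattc
Fos upstream TRF2 region: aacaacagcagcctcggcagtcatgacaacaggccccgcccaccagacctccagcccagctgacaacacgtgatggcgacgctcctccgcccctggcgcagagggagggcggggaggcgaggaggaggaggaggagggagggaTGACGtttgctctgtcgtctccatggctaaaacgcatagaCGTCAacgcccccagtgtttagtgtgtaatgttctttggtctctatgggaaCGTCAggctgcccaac

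The RefSeq promoter table (250 bases before to 50 bases after a start, GRCm38) held 7 of the 9 genes, all but Fosl1 and Egr1. None of the 7 held the AP-1 motif TGANTCA, the full CRE TGACGTCA or a CArG box in that window, against 7.81%, 1.79% and 1.63% of all 32851 promoters of the same length. The CRE arm TGACG, searched on both strands after the sequences were read, was in 4 of 7 (Fos, Fosb, Junb and Atf3), against 20.8% of all promoters. The RefSeq promoter of Fosl2 surrounds a start further downstream than the GENCODE start, so it does not hold the stretch printed above with its TGACG matches. TGACNTCA, also added then, was in Jun alone of the 7, against 8.83%. A match is a description of letters, not of a bound site.

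The 4 ATAC libraries held 84102 to 100521 MACS peaks, the TRF2 libraries 12290 and 15479, and IgG 656. The background pileup, which follows depth, was 3.35, 4.56, 3.37 and 3.41 in Control replicates 1 and 2 and TRF2KO replicates 1 and 2, so Control replicate 2 was the deepest. Promoters of all 7 MuSC markers carried a peak in all 4 libraries, and those of the 4 white blood cell markers, Ptprc included, carried none. Promoters of other cell types did carry peaks in all 4 for 4 of 6 markers: Pecam1, Pdgfra, Acta2 and Myh11, with mean ranks of 31.6, 63.0, 84.5 and 68.2. Itga7, a MuSC marker, ranked 93.8 and 95.1 in Control and 83.6 and 90.9 in TRF2KO. Its log2 ratio of TRF2KO to Control, in summit pileup over background, was -0.6. The other MuSC markers had ratios of -0.03 to 0.15, though Pax7, Cdh15 and Sdc4 also ranked lower without overlap. Acta2, a smooth muscle marker, ranked 89.4 and 90.2 in Control and 78.5 and 79.9 in TRF2KO, with a ratio of -0.84. Myh11, also of smooth muscle, overlapped in rank, with a ratio of 0.04. Pecam1 and Pdgfra overlapped in rank too. The part of such shifts in any difference below was not tested. The promoter of Terf2 itself, the targeted gene, ranked 90.1 and 91.5 in Control and 75.1 and 73.4 in TRF2KO.

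Each ATAC promoter peak was given as its rank, the percentile of its MACS fold in its own library's list, where 100 is the strongest peak. The promoter was 1 kb either side of the gene's 5′ end. Of the 9 genes, 8 had a promoter peak in all 4 libraries, as did 60.5% of all coding genes. The promoters of these genes were among the most open in MuSCs: 7 had a mean rank of at least 97, against 17.6% of the 13249 coding genes with a promoter peak in all 4 libraries. The median over the 8 was 99.5, and over all those genes 88.9. The limit of 97 was set after the values were seen.

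Fos (chr12:85473890-85477273), the prototype Fos subunit, had a promoter peak of 177-fold and 160-fold in Control and 190-fold and 192-fold in TRF2KO over background. Its ranks were 99.7, 99.8, 99.7 and 99.8 in the same order, and the groups overlapped. Fosb (chr7:19302696-19310051), a close relative of Fos, ranked 97.4 and 98.3 in Control and 97.8 and 97.8 in TRF2KO, again overlapping. Fosl1 (chr19:5447547-5455946), which encodes Fra-1, was the exception among the subunits. It ranked 67.9 and 75.3 in Control and 72.3 and 66.4 in TRF2KO, with folds of 13.6 to 18.8. All 4 ranks were below 88.9, the median over genes of the mean rank. Fosl2 (chr5:32135801-32157842), which encodes Fra-2, ranked 99.6 and 99.8 in Control and 99.3 and 99.4 in TRF2KO, so both TRF2KO libraries lay below both Control libraries.

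Jun (chr4:95049034-95052222), the founding Jun subunit, had folds of 216 and 183 in Control and 218 and 215 in TRF2KO. It ranked 99.9 in each library, with a difference of -0.0209 percentile points and no overlap between the groups. Junb (chr8:84974484-84978718), which can restrain Jun, ranked 99.3 and 99.5 in Control and 99.7 and 99.5 in TRF2KO. Jund (chr8:70698949-70700616), the subunit most often expressed in resting cells, ranked 99.5 and 99.4 in Control and 99.5 and 99.7 in TRF2KO, higher in TRF2KO without overlap. Egr1 (chromosome 18, 34859823 to 34864984) ranked 99 and 99.2 in Control and 98.8 and 98.6 in TRF2KO, lower without overlap. With 2 libraries a group the exact two-sided permutation test cannot go below p = 0.33, and the 4 genes whose groups did not overlap had that p.

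Against the background, the genotype did not single these promoters out. Of 8, 3 were lower in both TRF2KO libraries (Fosl2, Jun and Egr1), against 28.5% of all 13249 promoters, and 1 was higher (Jund), against 9.12%. The median difference was -0.0456 percentile points over the 8 and -0.251 over all. The calls depend on the scale. Expressed as summit pileup over the library's background, 0 of 8 were lower and 4 were higher (Fos, Fosb, Junb and Jund), against 4.88% and 35.2% of all promoters. On that scale the median log2 ratio of TRF2KO to Control was 0.17 over the 8 and 0.15 over all 13249. Without Control replicate 1, 6 were lower in rank, and without Control replicate 2, 4 were higher.

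**Figure D1:**
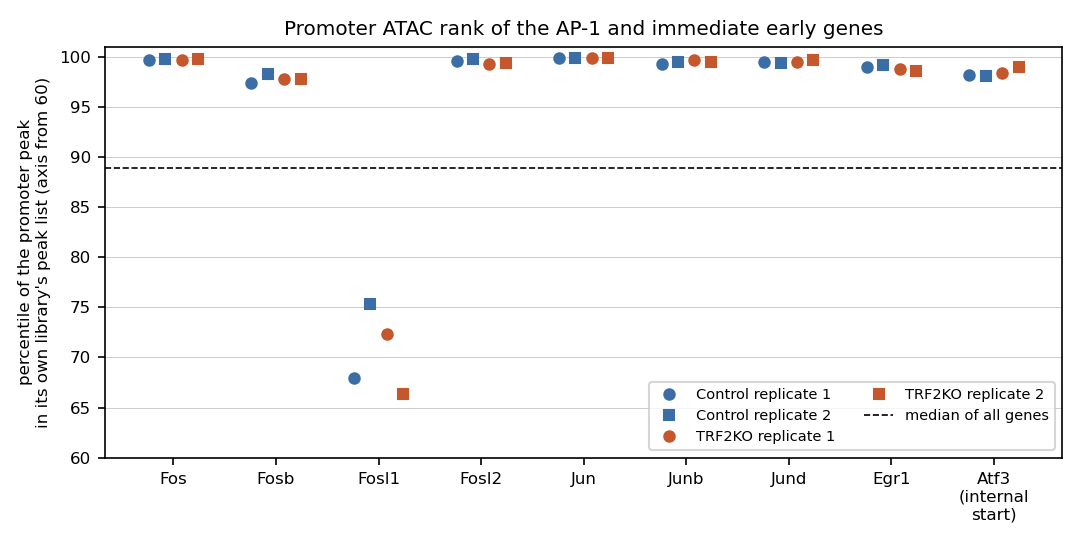
Percentile rank of the promoter ATAC peak (vertical axis, from 60) for each gene in the 4 libraries; blue is Control, orange TRF2KO, circles replicate 1, squares replicate 2, and the dashed line is the median of all genes at 88.9. All genes but Fosl1 sit above the line in every library, Atf3 being shown at its internal start.

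Atf3 (chr1:191170296-191218039) has its GENCODE 5′ end far upstream of its other 2 annotated starts, and that end was all but closed. It had no promoter peak in 3 libraries and one of 2.52-fold, rank 0.629, in TRF2KO replicate 1. The peak over both internal starts, 34699 and 34931 bp into the gene, had folds of 124 and 102 in Control and 135 and 145 in TRF2KO. Its ranks were 98.2 and 98.1 in Control and 98.4 and 99 in TRF2KO, higher in TRF2KO without overlap, with a difference of means of 0.512 percentile points. This start was examined after the values at the 5′ end were seen.

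The promoter peaks of these genes were also far wider than usual. A single peak of at least 4 kb lay over the promoter in each of the 4 libraries for 7 of 8 genes, against 1.40% of the 13249. The median over the 8 of the mean width was 10421 bp, against 1381 bp over all. Jund had the widest, 14632 and 15535 bp in Control and 13689 and 12456 bp in TRF2KO. Fosl2 had the narrowest of the 7, 7771 to 7917 bp, and Fosl1 measured 1635 to 1728 bp. At the internal start of Atf3 the width varied more than at any other, at 7020 and 21325 bp in Control and 10125 and 15107 bp in TRF2KO.

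In the locus maps the promoter peak ran over the 5′ end and the whole gene body in all 4 libraries for Fos, Fosb, Jun, Junb, Jund and Egr1. These are 6 of the 7 members no longer than 10 kb, and 2.75% of the 3382 coding genes of that length with a promoter peak in all 4 did the same. Both limits, 4 kb and 10 kb, were set after the values were seen. By genotype, 3 of 8 were narrower in both TRF2KO libraries (Fosb, Jun and Jund) and 0 wider, against 27.9% and 9.56% of all promoters. All 8 had a lower mean width in TRF2KO, but the share of all promoters that did so was not computed. The median difference was negative for both, -619 bp over the 8 and -59.5 bp over all, whose peaks were narrower to begin with. The lists give each peak's summit value alone, so how open the gene body was along these peaks was not analysed here.

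**Figure D2:**
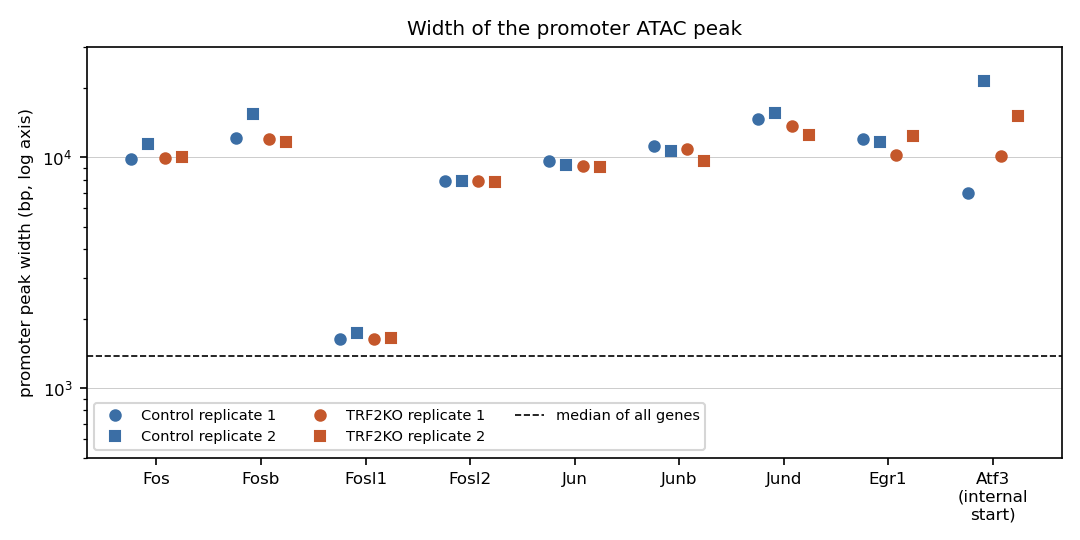
Width of the promoter ATAC peak in bp (log axis) for each gene and library, with colours and symbols as in the plot of ranks and the dashed line at 1381 bp, the median of all genes. The internal start of Atf3 and 7 of the promoters lie well above the line and Fosl1 lies near it.

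Around the promoters, the 9 windows held 85 and 89 ATAC peaks in Control and 87 and 78 in TRF2KO. The difference of means was -4.5 peaks, 87.0 ± 2.83 against 82.5 ± 6.36 (SD, n = 2 each; exact two-sided permutation p = 0.667). The length covered by peaks in the windows was 175 and 188 kb in Control and 165 and 162 kb in TRF2KO. That was a change of -9.7% without overlap (exact two-sided permutation p = 0.33). Over the whole lists the length covered was 70.3 and 76.9 Mb in Control and 65.3 and 62.0 Mb in TRF2KO, also without overlap. In number, the whole lists held 11.0% fewer peaks in TRF2KO (percent change -11.0) and the windows 5.17% fewer (percent change -5.17). SEACR and GoPeaks, the other callers the authors used, gave differences of the other sign, 3.5 and 2.0 regions. Fosl2 varied most between libraries, with 12 and 19 peaks in Control and 15 and 13 in TRF2KO, and Jun had 3 or 4 in each.

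**Figure D3:**
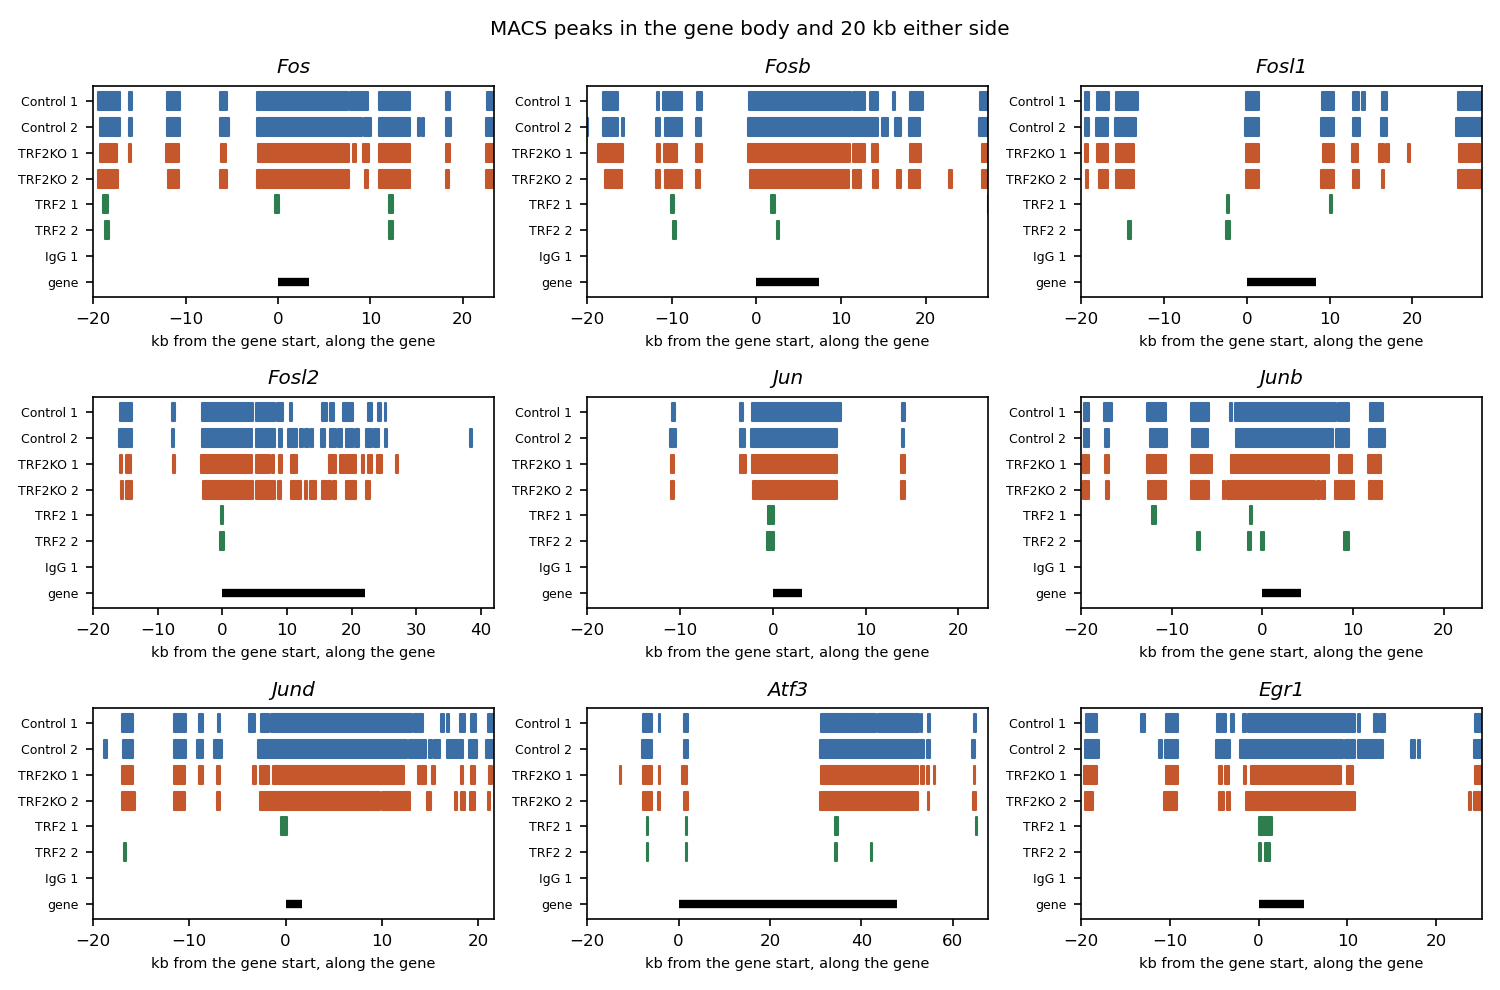
MACS peaks of each locus in kb from the gene start, running along the gene; each row is a library (blue Control, orange TRF2KO, green TRF2 CUT&Tag, grey IgG) and the black bar is the gene. Single ATAC peaks run past both ends of Fos, Fosb, Jun, Junb, Jund and Egr1 in every ATAC library, and IgG has 0 peaks in the 9 windows.

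Merging the 4 lists gave 95 ATAC regions in the windows. Of these, 56 had a peak in all 4 libraries (58.9%, against 50.2% of all 122720 merged regions) and 23 in 1 library alone (24.2%, against 30.4%). Fos was flanked by 3 further strong regions. At 17.1 kb upstream, 10.9 kb downstream and 22.5 kb downstream of the start, they ranked 99.5 to 99.6, 99.4 to 99.9 and 98.9 to 99.5 over the 4 libraries, and none of them held the start of another coding gene. Fosb had 2 strong upstream regions, 8815 and 15591 bp from the start, with ranks of 96.9 to 98.1 and 96.4 to 97.3. Of the 56 regions, 21 ranked lower in both TRF2KO libraries and 3 higher, against 44.0% and 8.95% of all 61610 regions with a peak in all 4. The median difference was -0.623 percentile points in the windows and -2.22 over all. Since 23 of the 56 had a mean rank above 90, where differences are small over the whole genome too (median -0.305), these medians are not at like rank.

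A region 13972 bp upstream of Fosl2, chr5:32119822-32121829, between genes, ranked lower in TRF2KO by more than most regions of like rank. It was picked out after the values were seen. Its folds were 51.1 and 47.3 in Control and 29.7 and 25 in TRF2KO, and its ranks 89.3, 91.2, 80.9 and 79.0. Its summit pileup reached 221 and 262 in the Control libraries, against 129 and 109 in the TRF2KO ones. Divided by background that is 66.1 (95% exact Poisson interval 57.6 to 75.4), 57.5 (50.7 to 64.9), 38.3 (31.9 to 45.5) and 32.0 (26.3 to 38.6), counting error alone. The intervals of the Control libraries did not overlap those of the TRF2KO libraries. Its rank difference was -10.3 percentile points, against a median of -1.37 and a 10th percentile of -5.64 over the 8737 regions with a mean rank of 80 to 90. The gap between the groups was 8.31 points. Of all 61610 regions, 9.56% fell by a gap at least as large and 654 regions rose by one. On the pileup scale the log2 ratio was -0.81, against a median of -0.01, and 3.23% of regions were as low. SEACR and GoPeaks called this region in all 4 libraries, and no TRF2 peak lay over it.

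The start of Fosl2 itself had a log2 pileup ratio of 0.03, against -0.81 at the upstream region. The difference between both was not tested. Inside Fosl2, regions 5171 and 8436 bp from the start ranked lower in TRF2KO, 61.4 and 52.0 against 46.6 and 42.6 for the first. On the pileup scale the genotypes overlapped at both. Their rank differences were -12.1 and -9.29, against 10th percentiles of -16.5 and -18.9 over regions of like rank, so neither was unusual. A region 19026 bp upstream of Fosl1 had ranks of 66.8 and 59.1 in Control and 45.4 and 48.7 in TRF2KO. Another, 17559 bp downstream of the Jund start, had 28.0 and 30.8 against 12.3 and 17.8. Their rank differences, -15.9 and -14.4, were also above the 10th percentiles of like rank, -16.5 and -18.9. In the other direction, a region 11394 bp upstream of Fosb ranked 54.6 and 62.0 in Control and 63.6 and 67.2 in TRF2KO. Its difference of 7.1 lay above 3.65, the 90th percentile over regions with a mean rank of 60 to 70. On the pileup scale the genotypes did not overlap there either, at 12.9 and 11.6 in Control and 16.6 and 17.9 in TRF2KO.

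**Figure D4:**
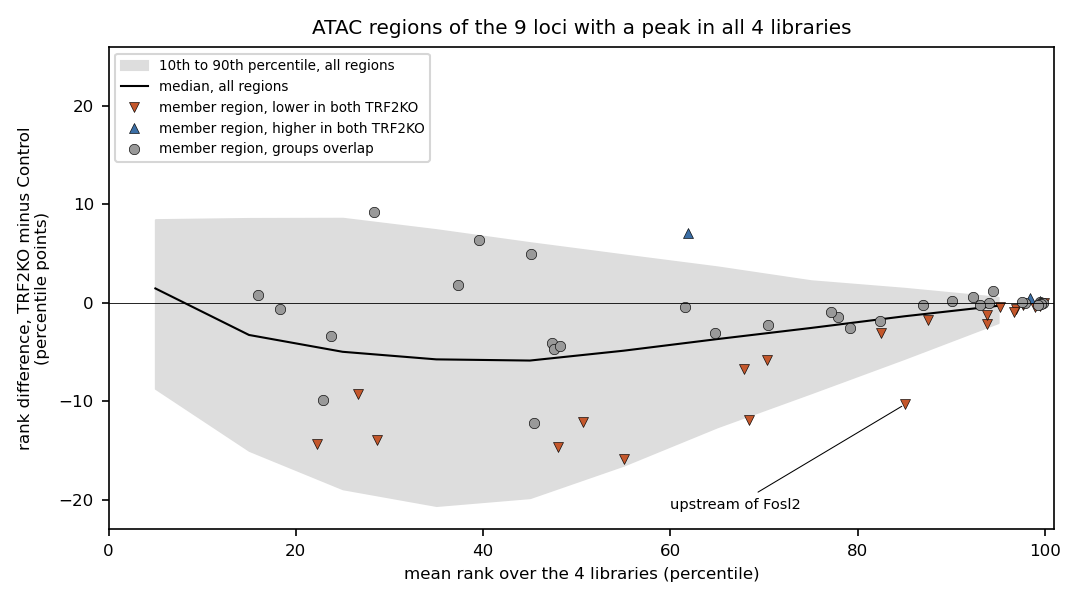
Rank difference (TRF2KO minus Control, percentile points) against the mean rank over the 4 libraries for the 56 ATAC regions of the 9 loci with a peak in all 4; triangles mark groups that did not overlap, the line and shading are the median and the 10th to 90th percentile of all such regions. The region upstream of Fosl2, at -10.3, lies below the shaded range, and one upstream of Fosb, at 7.1, lies above it.

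Regions that MACS called in one genotype alone were few. A peak in both Control and neither TRF2KO library was found for 3 regions, at Fosl2, Jund and Egr1, 3.16% of the 95 against 4.48% of all merged regions. The reverse was found for 0 of the 95, against 1.12%. The 3 were weak, with ranks of 5.0 and 23.9 at Fosl2, 2.41 and 6.87 at Jund and 31.9 and 34.6 at Egr1. SEACR called the one at Fosl2 in 2 of the 4 ATAC libraries and those at Jund and Egr1 in all 4, TRF2KO included. The authors' TRF2KO consensus list covered all 3.

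TRF2 was found at the promoter in both CUT&Tag libraries for 3 of the 9 genes. At Jun the peaks were 7.81-fold and 8.30-fold, with a summit pileup of 31 and 26, and stood at the 86.8 and 87.2 percentiles of their lists. At Egr1 they were 6.36-fold and 7.41-fold with a pileup of 27 and 28, and at Fosl2 5.18-fold and 8.72-fold with 14 and 22. Fos and Jund had a promoter peak in TRF2 replicate 1 alone (5.66-fold and 5.76-fold) and Junb in replicate 2 alone (3.80-fold). IgG had none at any of the 9.

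That count has to be read against how common TRF2 peaks are at open promoters. Over all coding genes 22.5% had a TRF2 peak at the promoter in both libraries, and over those with a promoter ATAC peak in all 4 libraries 37.1%. Among genes with a mean Control promoter rank of at least 96.7, the upper 20% of the 13249 and the range in which 7 of the 9 genes lay, the share was 79.9%, and 3 of those 7 genes had one. The share among these 7 genes lay below the background of promoters of like rank, a difference that was not tested. Within 3 kb of the start the count was 7 of 9, against 24.1% of all coding genes, and 5 of the 7 genes with a Control promoter rank of at least 96.7, against 82.8%. These counts and shares asked for a peak in each library, not for the same peak. Fosb, counted in both, had peaks that did not overlap. They lay 1722 to 2142 bp into the gene in replicate 1 and 2396 to 2703 bp in replicate 2.

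**Figure D5:**
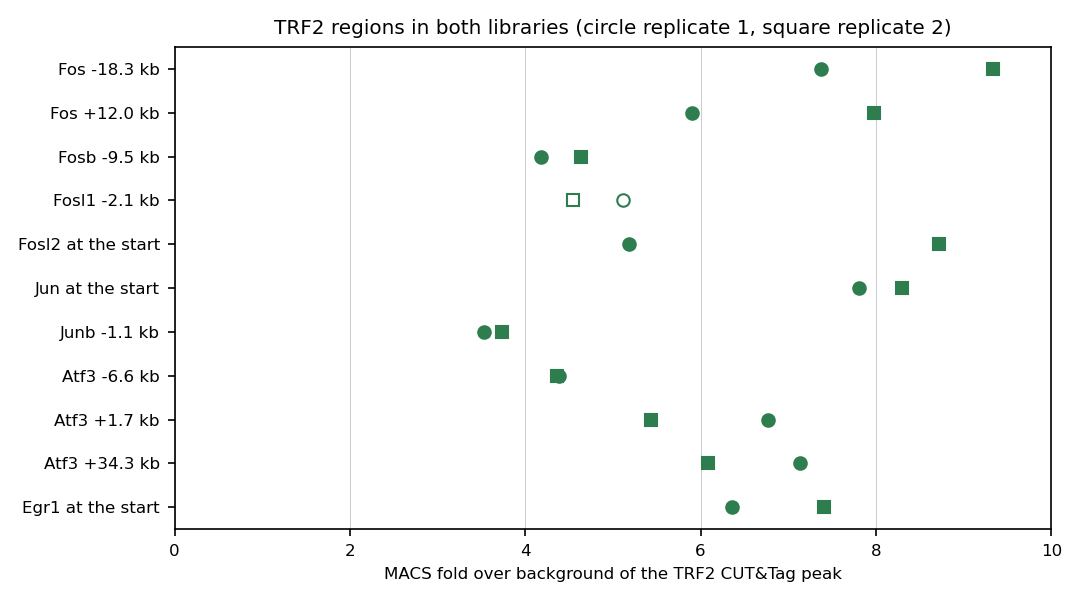
MACS fold of the 11 TRF2 regions found in both CUT&Tag libraries in the 9 windows, by distance from the gene start; circles are replicate 1 and squares replicate 2, and open symbols mark the region with no MACS ATAC peak. Folds run from 3.53 at Junb to 9.34 upstream of Fos, and Jund has no such region.

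In the windows, 25 TRF2 regions were called in either library and 11 in both, none of the 11 under an IgG peak. Of the 9 genes, 8 had at least 1 such region, against 41.9% of all coding genes given the same flanks and 89.4% of those with a Control promoter rank of at least 96.7. The highest fold was not at a start. By summit pileup, starts stood higher, at 31 and 26 for Jun and 27 and 28 for Egr1. Fold is taken over a background that differs between CUT&Tag peaks. It was 3.1 and 2.25 at Jun in replicates 1 and 2, against library medians of 0.826 and 0.685. The region 18266 bp upstream of Fos, chr12:85455009-85455624, had 7.37-fold and 9.34-fold peaks with a pileup of 17 and 20. A second, 11985 bp downstream of the Fos start, had 5.90-fold and 7.98-fold peaks. Both lay in the flanking ATAC regions of Fos described above, where the mean ATAC rank was 99.6. Atf3 had 3, at its internal starts (7.13-fold and 6.09-fold), 1676 bp into the gene (6.77-fold and 5.44-fold) and 6583 bp upstream (4.38-fold and 4.36-fold). Fosb had one 9527 bp upstream and Junb one 1092 bp upstream.

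Of the 11, 10 had an ATAC peak in all 4 libraries, as did 88.1% of all 7414 TRF2 regions in both libraries. The other, 2053 bp upstream of Fosl1 at chr19:5445043-5445494, had no MACS or GoPeaks ATAC peak in any library, as did 7.90% of TRF2 regions by MACS. Its TRF2 peaks were 5.11-fold and 4.55-fold, with a summit pileup of 10 and 8. SEACR called it in 1 ATAC library, and the authors' Control consensus list covered it while their TRF2KO list did not. The CUT&Tag cells came from injured muscle and the ATAC cells from uninjured muscle, so cell state and occupancy cannot be told apart here.

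The AP-1 motif was in more of these regions than usual but was no denser in them, and the regions were wider, with a median of 873 bp against 520 bp. TGANTCA was in 34 of the 95 ATAC regions (35.8%, against 24.3% of all merged regions), with 0.326 matches per kb against 0.391. In the 200 bp at the summit it was in 14 of 95 (14.7%, against 11.8%). The CArG box, the SRF site, was in 11 regions (11.6%, against 3.68%), with 0.0864 per kb against 0.0484, and 5 of its 18 matches lay around Fos and 6 around Egr1. At the summit 200 bp it was in 0 of 95. TGACGTCA was in 3 regions, 1 each at Fosb, Jund and Egr1 (3.16%, against 1.44%), with 0.0144 matches per kb against 0.0189. TGANTCA, TGACGTCA and the CArG box read the same on both strands. The G-quadruplex pattern (at least 4 tracts of 3 or more G, 1 to 7 bases apart, both strands searched) was in 7 of the 11 TRF2 regions, against 35.5% of all TRF2 regions in both libraries, and telomeric repeats in 0. The 11 were 236 to 1517 bp wide. Their width and match density were not compared with those of all TRF2 regions.

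The wider pathway was read from a list of 33 genes in 3 groups, of which 31 had a promoter peak in all 4 libraries. Among AP-1 and small Maf partners, 3 of 9 promoters ranked lower in both TRF2KO libraries and 1 higher. Among other immediate early genes, 3 of 14 were lower and 1 higher, and among upstream kinases and factors such as Srf, 2 of 8 were lower and 0 higher. In all, 8 of 31 were lower and 2 higher, near the backgrounds of 28.5% and 9.12%. Differences without overlap included those of Mafg, a small Maf (87.4 and 90.3 in Control, 90.9 and 90.4 in TRF2KO), Batf2 (93.9 and 93.4 against 93.1 and 91.2), Jdp2, an AP-1 repressor (95.1 and 95.1 against 93.6 and 94.4), Egr2 (96.2 and 96.2 against 95.3 and 95.3) and Mafk (97.4 and 98.0 against 97.1 and 96.6). Of these, the 4 that ranked lower overlapped between genotypes on the pileup scale. Wide promoters were shared by part of this list: 8 of the 14 other immediate early genes had a peak of at least 4 kb in all 4 libraries, against 1 of the 9 partners and 0 of the 8 upstream factors. TRF2 was at the promoter in both libraries for 14 of the 33, against 22.5% of all coding genes and 37.1% of those with a promoter ATAC peak in all 4 libraries, and IgG for 0.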

How the data were processed

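Peak lists of 4 ATAC-seq and 3 CUT&Tag libraries of mouse MuSCs were used. Per the labels and the methods of the study, the authors aligned reads to mm10 with Bowtie2 (2.5.4 for ATAC, 2.4.4 for CUT&Tag), removed duplicates with Picard 3.1.1, kept proper unique pairs with SAMtools 1.10, and called peaks with MACS (3.0.2 and 3.0.0), SEACR 1.3 and GoPeaks. MACS settings, a transposase shift and the use of IgG as control are not given in the sources used here. The deposited MACS lists give the fold over background at each summit (a ratio) and the authors' -log10 p and -log10 q. Consensus lists are one a genotype and were used for position alone. The deposited SEACR signal and consensus score were not used.

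Computed here, with Python 3.11.15, pandas 2.3.3, SciPy 1.17.1 and pysam 0.24.0, were the percentile of each fold in its list, and the summit pileup and background solved from fold and p, exact for 100% of the peaks with -log10 p under 200 and checked on simulated data. ATAC background was constant within a library, and CUT&Tag background varied between peaks. Regions overlapped at 1 bp or more. A promoter was 1 kb either side of the gene's 5′ end in GENCODE M21, and its peak the one with the highest fold. Regions within 3 kb of any start were called promoters, and sequences were read from GRCm38.p6. Groups came from titles. A library is 1 replicate, and the ATAC replicates are biological per the design text, while the labels do not say this of the TRF2 libraries. Group means were compared by the exact two-sided permutation test over libraries (6 assignments, smallest p = 0.33). Differences without overlap were counted beside the same share over all genes or regions. Depth limits the lists: a peak not called is a peak below threshold.

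All 9 members are named. Genes of the wider list are named where ranks did not overlap or a TRF2 peak in both libraries lay outside the promoter, at most 6 by size of the difference. One gene that this rule names is not reported here. The members, lists and tests were chosen with earlier results of these data known. Alternatives were the callers, thresholds, windows, start sites, ranking measures and leaving out each library.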

Additional observations from a re-analysis of the deposited data

How the results depend on the processing

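In rank, 3 members were lower and 1 higher in both TRF2KO libraries, and these counts were 3 and 1 also by rank among promoter peaks, by -log10 q and with promoters of 500 bp or 3 kb. As pileup over background the counts were 0 and 4. With any annotated start 2 were higher. The median rank difference of the members was 0.0135 among promoter peaks. Leaving out one library in turn gave 3 to 6 lower, 1 to 4 higher and a median difference of -0.227 to 0.0975, the extremes being those without Control replicates 1 and 2. Same-numbered replicates did not deviate together (correlation -0.03 over 13249 promoters), and with the replicate block, that is counting same-numbered pairs, 3 were lower and 1 higher.

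The peak difference in the windows, -4.5, was 3.5 with SEACR and 2.0 with GoPeaks, -8.0 for peaks with -log10 q of at least 5 and -16.5 in 50-kb windows (both without overlap) and -0.5 in 10-kb windows, and ranged from -9.0 to 0.0 with a library left out, 0.0 being that without TRF2KO replicate 2. Control-specific regions, 3, numbered 0 with SEACR, 0 at the stricter threshold with no caller in TRF2KO, 8 in 50-kb windows and 5 to 13 with a library left out. TRF2KO-specific regions, 0, numbered 1 with GoPeaks, 1 in 50-kb windows and 0 to 6 with a library left out. Requiring fewer libraries lets more regions through. TRF2 at the promoter, 3 genes, became 7 within 3 kb, with Fosb counted by a different peak in each library, and 4 or 5 from replicate 2 or 1 alone. TRF2 regions, 11, numbered 6 at -log10 q of at least 5, 20 in 50-kb windows and 18 from either replicate alone. The AP-1 motif was in 14.7% of summit windows (11.8% over all regions) and 55.4% of regions open in all 4 libraries (34.1%). The CArG box was in 0.0% of summit windows (0.962%). The G-quadruplex pattern was in 37.9% of regions (20.7%), 5.26% of summit windows (6.63%) and 60.7% of regions open in all 4 (32.2%). Its density hardly differed, at 0.465 matches per kb (0.458 over all regions), and 0.503 in regions open in all 4 (0.505). For the other results that moved the cause was not tested. Depth limits the weak peaks: TRF2 summit pileups here were 4 to 31.

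Limits chosen after the data were seen were also moved. In rank, 7 members passed 95 and 5 passed 99. In width, 7 passed 2 kb and 6 passed 8 kb, and 7 passed 4 kb with either other caller. A looser limit cannot lose a member, and the shares of all genes at these other limits were not computed. The difference upstream of Fosl2 was -11.2 to -9.35 with a library left out. That region was picked with groups that did not overlap, so leaving out a library could not change the sign.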
